A study of Mus musculus with 6 samples.

Results

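The members described here are the genes of respiratory complexes III, IV and V with cytochrome c, chosen by name as the protein-coding genes whose symbol starts with Uqcr, Cox, Atp5, mt-Co, mt-Cytb or mt-Atp, together with Cyc1 and Cycs and without symbols holding -ps. This name rule gave 61 of the 54532 genes in the files, of which 10 belong to complex III, 30 to complex IV, 20 to complex V and 1 is cytochrome c. The complex IV group also holds assembly factors that carry a Cox symbol, and it misses subunits with other names, such as Ndufa4. Of the 61 members, 52 passed the expression filter used for testing, a mean of at least 1 FPKM (fragments per exon length and library size) over the libraries, and 9 did not.

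The RNA, selected for poly(A), came from mouse bone marrow-derived macrophages made immortal by infection with v-raf and v-myc retroviruses. The 2 groups were 3 libraries labelled wild type (WT) and 3 labelled 4-1BBL KO, from cells deficient for 4-1BBL, a ligand of the TNF family whose gene is Tnfsf9, and all cells of both groups were given 10 ng/ml of IL-4 over 24 hours. The study asked how 4-1BBL bears on anti-inflammatory responses of macrophages. The labels give neither the deleted part of Tnfsf9, nor the mouse strain or age, nor how many immortalised lines each genotype had, so genotype and cell line cannot be told apart. Whether libraries of 1 group were separate cultures is not stated either, so p-values reflect the spread among the libraries at hand, which may be technical.

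Depth recovered from the FPKM values was 20.7 to 22.3 M fragments (1 M being 1000000) per library in the WT group and 19.1 to 26.4 M fragments in the KO-labelled group. Tnfsf9 stood at 12.3 ± 2.10 FPKM (SD, n = 3) in the WT libraries and 10.9 ± 0.414 FPKM (SD, n = 3) in the KO-labelled ones, a difference that did not pass (limma adjusted p = 0.272 over all tested genes). Gene-level FPKM do not show which exons the reads came from, so the KO label could not be checked on the transcript, and every direction below is stated for the libraries labelled KO. Macrophage markers were present in both groups, 9 of 10 at 1 FPKM or more in WT and 10 of 10 in KO-labelled libraries, but at different levels. Their summed level was 2399 to 2450.0 FPKM against 1442 to 1502 FPKM. Mertk was at or near 0 in WT, Adgre1 averaged 11.8 FPKM against 268 FPKM, and Ptprc and Fcgr1 were also higher in KO-labelled libraries. Lyz2 (1207 against 484 FPKM), Cd14 (292 against 45.8 FPKM), Cd68 (426 against 275 FPKM) and Csf1r (232 against 134 FPKM) were lower on average. Itgam and Tyrobp overlapped between groups. The summed neutrophil, dendritic cell, stromal and mast cell lists reached at most 1.24 FPKM in any library. An osteoclast list, which macrophages share in part, summed to 127 to 138 FPKM in WT and 82.5 to 85.6 FPKM in KO-labelled libraries. Its genes moved in both directions. On average Acp5 went from 50.8 to 2.79 FPKM, Dcstamp from 6.75 to 0.09 FPKM and Mmp9 from 4.60 to 0.52 FPKM, whereas Ctsk went from 69.5 to 80.5 FPKM. The lymphocyte list reached 1.80 FPKM in the KO-labelled group, where Cd79b passed 1 FPKM. The part of these differences in the results below was not tested.

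Complex III takes electrons from ubiquinol and hands them to cytochrome c, complex IV passes them on to oxygen, and both pump protons across the inner mitochondrial membrane. Complex V, the ATP synthase, lets protons flow back through a rotating ring of c subunits in the membrane and makes ATP in its F1 head. Most subunits are encoded in the nucleus and a few in mitochondrial DNA, and macrophages given IL-4 are known for a high reliance on this respiratory chain.

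Several members have near-identical copies elsewhere in the genome, and stretches of gene and copy are shown here because the values of Atp5g1, Cox7a2l and mt-Co2 are given below with and without those of their copies. The stretches are coding sequences from the GENCODE M21 transcripts. Capitals in the Atp5g1 pair mark the one position at which the coding sequences of 411 bases differ, G385A counted from the start codon. Capitals in the Cox7a2l pair mark the stretch at which Gm6969 holds 6 bases that Cox7a2l lacks, beside the substitution T214A, and a further substitution, C303T, lies outside the stretch shown. The mt-Co2 line gives the first 60 bases shared without a difference by mt-Co2 and the chromosome 1 pseudogene Gm28661.
Atp5g1: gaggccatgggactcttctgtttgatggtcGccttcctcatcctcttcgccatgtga
Gm10039: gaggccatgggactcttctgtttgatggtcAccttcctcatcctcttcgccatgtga
Cox7a2l: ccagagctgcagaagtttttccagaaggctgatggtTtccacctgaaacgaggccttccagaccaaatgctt
Gm6969: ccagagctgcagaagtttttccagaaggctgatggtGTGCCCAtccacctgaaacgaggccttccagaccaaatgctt
mt-Co2: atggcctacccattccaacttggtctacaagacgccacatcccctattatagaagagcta

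Among the 52 tested members, 29 were lower and 2 were higher in the KO-labelled libraries, and 21 did not pass the test (limma on log2(FPKM + 1), Benjamini-Hochberg adjustment over 10843 genes, threshold 0.05). The share of all tested genes that passed was 60.8%, with 30.6% higher and 30.2% lower, so the members' share of calls was near that of all genes while the direction was mostly downward. Lower calls were 8 of 10 in complex III, 12 of 23 in complex IV and 8 of 18 in complex V. Both higher calls, Atp5g1 and Atp5g2, were genes of the ATP synthase c subunit, and both calls were lost once the fragments of copies were added, at limma adjusted p-values of 0.565 and 0.0612. The median log2 fold change, KO-labelled minus WT, was -0.44 in complex III, -0.19 in complex IV and -0.21 in complex V, beside 0.01 over all tested genes. In bulk RNA, fewer cells of a type and less RNA per cell cannot be told apart.

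The balance of directions depended in part on scaling. With FPKM rescaled to TPM, which has the same sum in every library, complex III had 8 lower and 1 higher member (Uqcr10), complex IV 10 lower and 2 higher (Cox14 and Cox7b), and complex V 5 lower and 2 higher. On that scale 61% of all tested genes passed, 24.4% lower and 36.6% higher. The 3 WT and 3 KO-labelled libraries did not overlap in FPKM for 35 of the 52 members, 9 of 10 in complex III, 13 of 23 in complex IV and 12 of 18 in complex V, where 67.4% of all tested genes did not overlap, 33.4% lower and 34.1% higher. KO-labelled replicate 3 was the library farthest from the other libraries of its group for 30 of the 52 members, 57.7%, against 42.8% of all tested genes. Without it, lower and higher calls were 9 and 1 in complex III, 14 and 1 in complex IV and 9 and 2 in complex V, beside 59.4% of all tested genes passing, 29.8% lower and 29.7% higher.

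**Figure D1:**
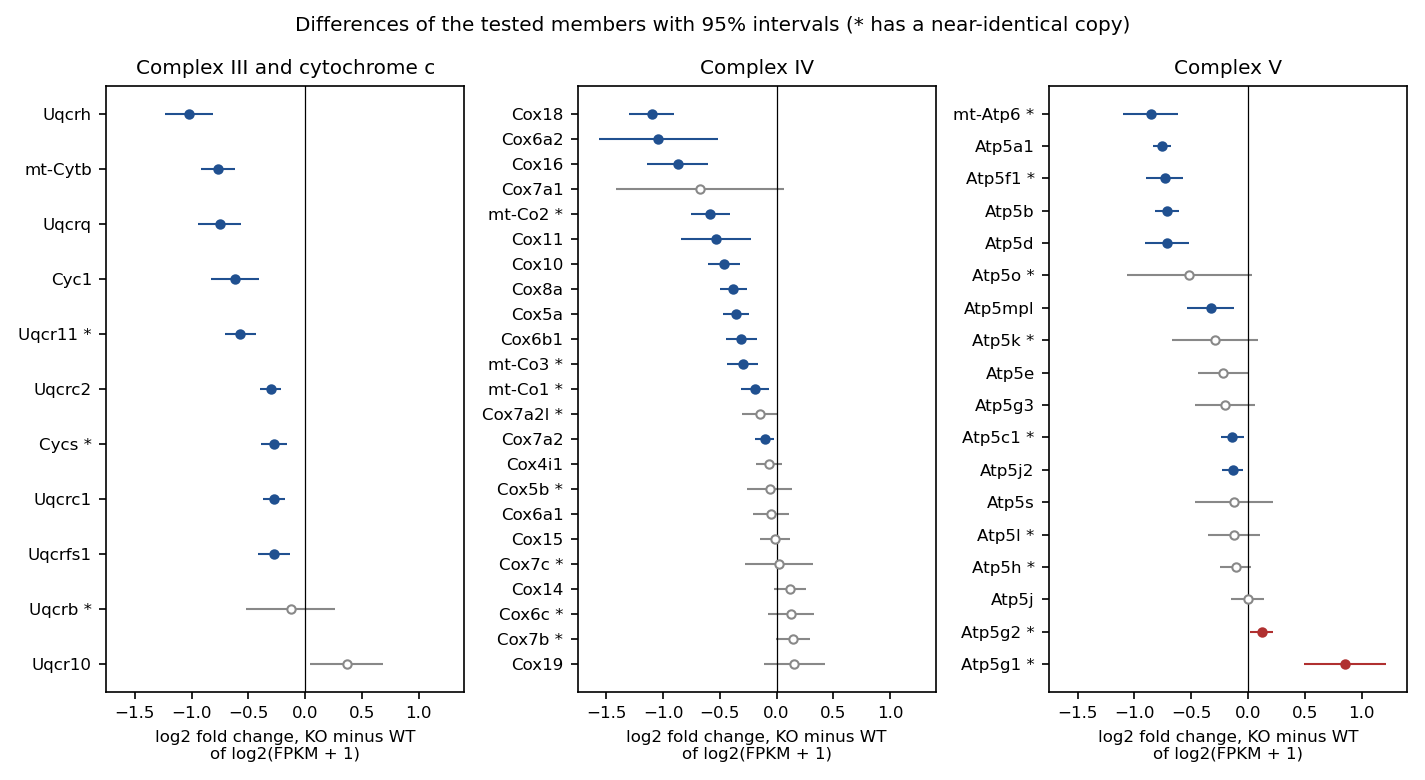
Log2 fold change of log2(FPKM + 1), KO-labelled minus WT, for the 52 tested members by complex, with 95% intervals from limma; filled points passed the adjusted threshold, in blue where lower and in red where higher, and an asterisk marks a near-identical copy. Complex III members span Uqcrh at -1.02 to Uqcr10 at 0.37, complex IV members Cox18 at -1.10 to Cox19 at 0.16, and complex V members mt-Atp6 at -0.86 to Atp5g1 at 0.86.

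All 5 catalytic and core members of complex III were lower in the KO-labelled libraries. mt-Cytb, cytochrome b, is the complex III subunit encoded in mitochondrial DNA, at chrM:14145-15288 on the GRCm38 build, and its transcript had no near-identical copy in the search. It stood at 764, 710.2 and 728 FPKM in the WT libraries and at 398, 464 and 432 FPKM in the KO-labelled ones. The groups did not overlap, and the log2 fold change was -0.77 ± 0.06 (SE, limma adjusted p = 4.97e-05). Cyc1, cytochrome c1, which carries electrons to cytochrome c, was at 131, 136 and 134 FPKM against 94.8, 92.3 and 74.6 FPKM. Every KO-labelled library was below every WT library, replicate 3 lowest, with a log2 fold change of -0.62 ± 0.09 (SE, limma adjusted p = 0.000896). The other core members, the core proteins Uqcrc1 and Uqcrc2 and the Rieske iron-sulfur protein Uqcrfs1, were lower by a smaller amount, with log2 fold changes from -0.31 to -0.27. For Uqcrfs1 the call was lost under quantile normalization (log2 fold change -0.14, limma adjusted p = 0.0705).

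The accessory subunits of complex III did not move as a block. Uqcrh, the hinge protein that contacts cytochrome c1, lies at chr4:116066965-116075071 on the minus strand and had the largest fold change in the complex. No copy of Uqcrh met the copy thresholds, but 45.2% of the Uqcrh transcript lay in sequence alignments with other transcripts. The part of these stretches in the Uqcrh values was not tested. Uqcrh values were 163, 157 and 165 FPKM in WT against 82.8, 87.0 and 68.2 FPKM in the KO-labelled group. The groups stood well apart, 2.04-fold on the linear scale, with a log2 fold change of -1.02 ± 0.09 (SE, limma adjusted p = 6.55e-05). Uqcrq, a small subunit bound to cytochrome b, was at 90.8, 89.6 and 106 FPKM against 53.0, 54.9 and 60.6 FPKM. These groups did not overlap either, with a log2 fold change of -0.75 ± 0.08 (SE, limma adjusted p = 0.000188). Uqcr11, the smallest subunit, was also lower (-0.57 ± 0.06, SE, limma adjusted p = 0.000143).

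Uqcr10, an accessory subunit next to cytochrome c1, showed the opposite order, at 149.6, 150.5 and 155 FPKM in WT against 166, 183 and 247 FPKM in the KO-labelled group. All KO-labelled values were above all WT values, but replicate 3 was far above the others of its group and the difference missed the threshold (log2 fold change 0.37 ± 0.14, SE, limma adjusted p = 0.0515). It passed on the TPM scale (0.46, limma adjusted p = 0.0283), without KO-labelled replicate 3 (0.20, limma adjusted p = 0.0148) and without KO-labelled replicate 1 (0.48, limma adjusted p = 0.0167). The ratio of Uqcrh to Uqcr10 in FPKM was 1.07 ± 0.0257 (SD, n = 3) in WT and 0.417 ± 0.123 (SD, n = 3) in KO-labelled libraries. This ratio does not depend on the scaling of a library. Like Uqcrh, Uqcr10 had no copy within the thresholds, but 29.4% of its transcript lay in such alignments. Uqcrb, the ubiquinone-binding subunit, was at 54.4, 67.7 and 61.4 FPKM against 48.1, 48.9 and 73.0 FPKM. Its groups overlapped through KO-labelled replicate 3, and the log2 fold change of -0.13 ± 0.17 (SE, limma adjusted p = 0.53) became -0.32 (limma adjusted p = 0.0217) without that library. Uqcr10, Uqcrb, Uqcr11 and the less changed core members are given here after their values were seen.

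**Figure D2:**
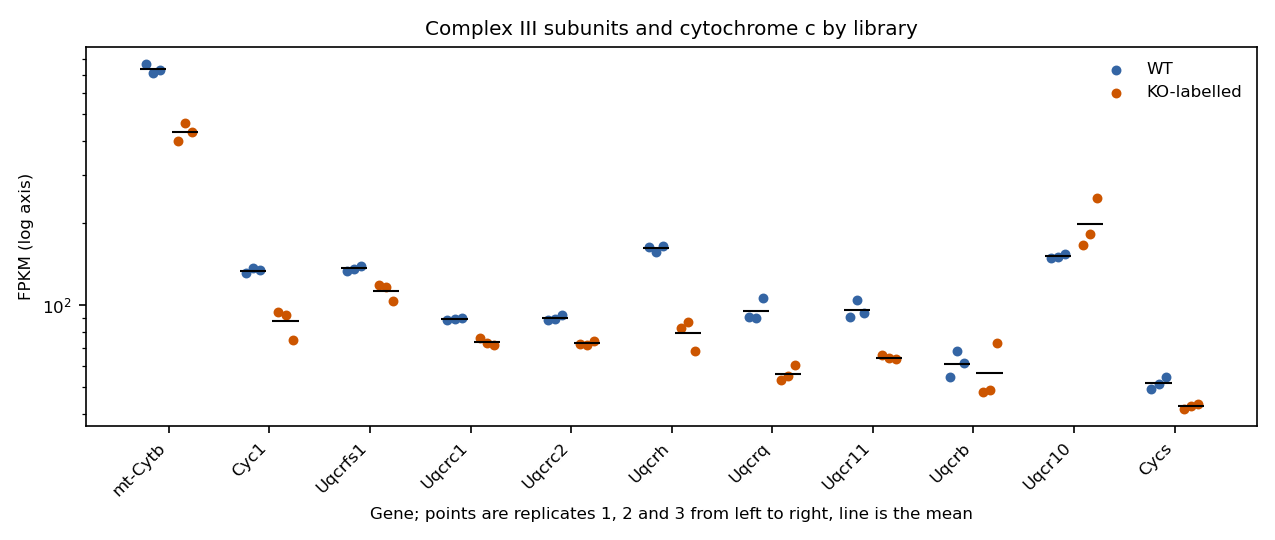
FPKM (log axis) of the 10 complex III members and Cycs in each library, WT in blue and KO-labelled in orange, replicates 1 to 3 from left to right and the mean as a line. The 9 complex III members other than Uqcrb have groups that do not overlap, and of these only Uqcr10 has the KO-labelled values on top.

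The sequence before the start of Uqcrh is shown because it is the complex III gene with the largest difference, in the RefSeq promoter table on GRCm38.p6, chr4:116075071-116075190 read on the minus strand, 120 to 1 bases before the start. Capitals mark the only match in it to the GABPA letters CCGGAAG, here on the opposite strand.
Uqcrh: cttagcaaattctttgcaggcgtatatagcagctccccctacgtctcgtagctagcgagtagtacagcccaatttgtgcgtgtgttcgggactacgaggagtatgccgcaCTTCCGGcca
The table held promoters, 250 bases before to 50 after the start, for 41 of the 61 members. On either strand CCGGAAG occurred in 36.6% of those members' promoters and in 9.93% of all 27025 genes with a promoter. The NRF1 letters GCGCANGCG occurred in 26.8% and 7.03%, and the YY1 letters AANATGGCG in 9.76% and 2.76%. Among members, CCGGAAG was found in 35.3% of the 17 that were lower and in 44.4% of the 18 that did not pass the test. GCGCANGCG was found in 23.5% and 33.3% of these, and AANATGGCG in 17.6% and 5.56%. A match describes the letters of this window and is not a measured site.

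Cycs, the soluble carrier cytochrome c, was at 49.5, 51.6 and 54.7 FPKM in WT against 41.8, 42.9 and 43.3 FPKM in the KO-labelled group. The groups did not overlap (log2 fold change -0.28 ± 0.05, SE, limma adjusted p = 0.00231).

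In complex IV, the 3 mitochondrially encoded core subunits were lower in the KO-labelled libraries, 5 of 12 tested nuclear subunits were lower, and 4 of 8 tested assembly and supercomplex factors were lower. Among all tested genes 30.2% were lower. With all 6 libraries, no complex IV member was called higher by limma on the FPKM scale. At an unadjusted limma p under 0.05, 0 were higher, beside 3545 of the 10843 tested genes. After quantile normalization limma called 2 higher, Cox14 and Cox7b. Voom on recovered fragments called 1 higher, Cox7b, and limma without KO-labelled replicate 3 called 1, Cox19 (0.27, limma adjusted p = 0.0419). mt-Co1, the subunit that binds oxygen, lies at chrM:5328-6872 and was listed at the highest level of any member per length, 6657 TPM in WT and 6235 TPM in KO-labelled libraries. Its values were 2171, 2035 and 1982 FPKM against 1721, 1849.8 and 1856 FPKM. The groups did not overlap, and the difference was small (log2 fold change -0.19 ± 0.05, SE, limma adjusted p = 0.0174). The call was lost on the TPM scale (-0.09, limma adjusted p = 0.228), without WT replicate 1 (limma adjusted p = 0.073) and without WT replicate 2 (limma adjusted p = 0.057). It was also lost without the filter (limma adjusted p = 0.227) and with the replicate number as a block (limma adjusted p = 0.0555). The ratio of mt-Cytb to mt-Co1, both from mitochondrial DNA, was 0.356 ± 0.01 (SD, n = 3) in WT and 0.238 ± 0.0111 (SD, n = 3) in KO-labelled libraries, so these transcripts of the same genome did not change in proportion.

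mt-Co2, which takes electrons from cytochrome c and lies at chrM:7013-7696, was at 22.0, 21.4 and 20.9 FPKM in WT against 12.9, 13.7 and 15.5 FPKM in the KO-labelled group. mt-Co3, at chrM:8607-9390, was at 12.8, 12.3 and 12.1 FPKM against 9.62, 9.52 and 10.6 FPKM. Neither gene's groups overlapped, with log2 fold changes of -0.58 ± 0.07 (SE, limma adjusted p = 0.00039) and -0.30 ± 0.06 (SE, limma adjusted p = 0.00371). mt-Atp6, subunit a of the ATP synthase at chrM:7927-8607, was at 13.5, 11.8 and 10.4 FPKM against 6.73, 5.59 and 5.99 FPKM. The KO-labelled values were all below the WT values, with a log2 fold change of -0.86 ± 0.10 (SE, limma adjusted p = 0.000358). mt-Atp8, a small neighbouring subunit, was under the filter, with 6 fragments in all WT and 2 in all KO-labelled libraries, and was not tested.

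The 3 genes mt-Co2, mt-Atp6 and mt-Co3 each have a pseudogene of identical sequence in one stretch of chromosome 1. For mt-Atp8 no copy was found, but the search covered annotated transcripts only, so an unannotated copy would have been missed. Gm28661 (chr1:24614885-24615565) is identical to mt-Co2 over 681 bases, Gm10925 (chr1:24613974-24614651) to mt-Atp6 over 678 bases and Gm28437 (chr1:24613189-24613971) to mt-Co3 over 783 bases. The pseudogenes were listed at levels close to those of the genes: Gm28661 averaged 19.9 FPKM in WT against 18.1 FPKM in the KO-labelled group. Gm28437 averaged 12.4 and 12.3 FPKM, and Gm10925 averaged 14.8 and 9.54 FPKM. For mt-Co1 the copy in that stretch, Gm29216, covers 483 bases, and it averaged 4.44 and 5.24 FPKM. With the fragments of the copies added, mt-Co2 went from 28.2 to 22.0 FPM (fragments per M fragments of the library), mt-Atp6 from 18.2 to 10.6 FPM and mt-Co3 from 19.4 to 17.4 FPM, and the call on mt-Co3 was lost (log2 fold change -0.15, limma adjusted p = 0.0623), as it was under voom on the gene alone (adjusted p = 0.123). How reads that fit both places were counted is not given in the sources used here, so the levels of mt-Co2, mt-Co3 and mt-Atp6 are uncertain and are not compared with those of other genes. The 13 mitochondrial protein-coding genes together gave 0.642% to 0.691% of fragments in WT and 0.502% to 0.568% in KO-labelled libraries, without overlap. The libraries were selected for poly(A), so these shares describe polyadenylated mitochondrial transcripts, as far as they were counted at the mitochondrial genes. The shares include the uncertain values of mt-Co2, mt-Co3 and mt-Atp6.

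**Figure D3:**
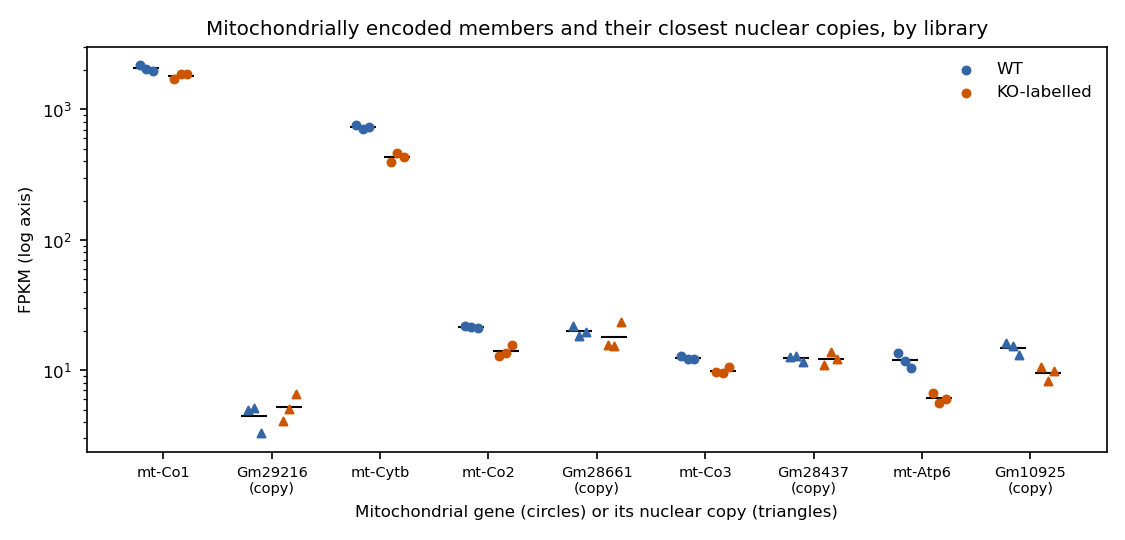
FPKM (log axis) of mitochondrially encoded members (circles) and their closest nuclear copies (triangles) in each library, WT in blue and KO-labelled in orange, with means as lines. mt-Co2, mt-Co3 and mt-Atp6, whose levels are uncertain, lie between 5.59 and 22.0 FPKM, next to Gm28661, Gm28437 and Gm10925.

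Among the nuclear subunits of complex IV, those with the highest levels split. Cox8a, a small structural subunit, was at 377, 383 and 413 FPKM in WT against 303, 289 and 308 FPKM in the KO-labelled group. Cox6b1, on the side facing cytochrome c, was at 249.8, 265 and 269 FPKM against 219, 218 and 195 FPKM. Both were lower without overlap, at -0.38 ± 0.05 (SE, limma adjusted p = 0.000492) and -0.31 ± 0.06 (SE, limma adjusted p = 0.00307), and the call on Cox6b1 was lost under quantile normalization (-0.09, limma adjusted p = 0.163). Cox4i1, the subunit through which ATP is known to act on the enzyme, was at 312, 324 and 328 FPKM against 305, 291 and 323 FPKM. Cox6a1 was at 325, 333 and 328 FPKM against 341, 328 and 286 FPKM. Their groups overlapped, with log2 fold changes of -0.07 (95% interval -0.18 to 0.05) and -0.05 (95% interval -0.21 to 0.11). Cox4i1 passed without KO-labelled replicate 3 (-0.11, limma adjusted p = 0.0489).

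Cox7b, whose loss in humans causes a skin and eye syndrome, was at 89.1, 99.1 and 102 FPKM in WT against 102, 106 and 113 FPKM in the KO-labelled group. The difference missed the threshold (0.14 ± 0.06, SE, limma adjusted p = 0.0912) and passed on the TPM scale (0.24, limma adjusted p = 0.0173). Cox7a2 was at 143, 144 and 149 FPKM against 135 FPKM in each KO-labelled library. That difference was small (-0.10 ± 0.04, SE, limma adjusted p = 0.0386), was lost on the TPM scale and without any one of 5 of the 6 libraries, KO-labelled replicate 3 being the exception, and turned to 0.06 (limma adjusted p = 0.136) under quantile normalization. Of the remaining nuclear subunits, Cox5a was lower (-0.36 ± 0.05, SE, limma adjusted p = 0.000676), and Cox5b, Cox6c and Cox7c did not pass.

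Tissue-specific subunit forms were low or not detected. Cox6a2, the form known from heart and skeletal muscle, was at 2.00, 3.54 and 2.31 FPKM in WT against 0.557, 1.27 and 0.461 FPKM in the KO-labelled group. It rested on 114 and 33 fragments per group and was lower without overlap (-1.04 ± 0.22, SE, limma adjusted p = 0.00546). Its share of the summed TPM of Cox6a1 and Cox6a2 was 0.788% ± 0.233 (SD, n = 3) against 0.237% ± 0.129 (SD, n = 3). Cox7a1, another muscle form, was at 5.16, 3.87 and 6.46 FPKM against 4.75, 1.42 and 2.93 FPKM. Those groups overlapped through KO-labelled replicate 1, and the difference did not pass (-0.68 ± 0.31, SE, limma adjusted p = 0.0988), whereas without that library it did (-0.98, limma adjusted p = 0.0203). Cox7a1 made up 3.42% ± 0.775 (SD, n = 3) and 2.19% ± 1.17 (SD, n = 3) of the Cox7a pair.
Cox4i2, the form known from lung, had 6, 3 and 7 fragments in the WT libraries and 1, 0 and 0 in the KO-labelled ones, at most 0.122% of the Cox4 pair. Cox6b2, Cox7b2, Cox8b and Cox8c had no fragment in any library, and 3 fragments would correspond to at most 0.435 FPKM, so expression below that was not detectable at this depth. Such limits cover counting error only.

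Of the assembly factors, Cox18, which inserts part of the mt-Co2 protein into the inner membrane, had the largest fold change among complex IV members on the log2(FPKM + 1) scale. On the linear scale the low Cox6a2 differed more, 3.43-fold, and it also did on the TPM scale (-1.42 against -1.09). Cox18 lies at chr5:90214724-90224001 on the minus strand and was at 13.7, 14.6 and 14.2 FPKM in WT against 6.46, 6.60 and 5.24 FPKM in the KO-labelled group. The groups stood apart 2.32-fold, with a log2 fold change of -1.10 ± 0.08 (SE, limma adjusted p = 3.55e-05). Cox16, another factor for the mt-Co2 protein, was at 5.25, 4.96 and 4.07 FPKM against 2.40, 1.81 and 2.23 FPKM. It was lower without overlap (-0.87 ± 0.11, SE, limma adjusted p = 0.000502), but 56.8% of its exon bases are shared with the readthrough gene Gm20498 on the same strand. Cox11, which delivers copper to the mt-Co1 protein, was at 4.97, 5.08 and 5.11 FPKM against 2.77, 4.18 and 2.75 FPKM. It was also lower (-0.53 ± 0.13, SE, limma adjusted p = 0.0104), and 48.4% of its exon bases lie opposite Tom1l1, whose reads may not have been kept apart.

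The heme A enzymes differed from each other. Cox10, which makes heme O, was lower (-0.46 ± 0.06, SE, limma adjusted p = 0.000475), from 13.3 ± 0.742 (SD, n = 3) to 9.37 ± 0.337 FPKM (SD, n = 3). Cox15, which acts on the product of Cox10, was at 18.8 ± 0.834 (SD, n = 3) and 18.6 ± 0.919 FPKM (SD, n = 3), a log2 fold change of -0.01 (95% interval -0.15 to 0.12). The ratio of Cox18 to Cox15 in FPKM was 0.755 ± 0.0407 (SD, n = 3) in WT and 0.327 ± 0.0346 (SD, n = 3) in KO-labelled libraries. Cox14 and Cox19 did not pass on the FPKM scale, at 0.12 and 0.16. Cox17 and Cox20 were under the filter, and 91.0% of the exon bases of Cox20 lie opposite Hnrnpu. These genes are given after their values were seen.

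Cox7a2l, the factor that joins complexes III and IV into supercomplexes, was at 131, 140.3 and 139 FPKM in WT against 119.5, 116 and 135 FPKM in the KO-labelled group. The groups overlapped through KO-labelled replicate 3, and the difference did not pass (-0.15 ± 0.07, SE, limma adjusted p = 0.0872), whereas without that library it did (-0.21, limma adjusted p = 0.0061). Its processed copy Gm6969, at chr12:24638669-24639010, behaved otherwise, with 0.274, 0.846 and 2.89 FPKM against 51.4, 58.2 and 47.2 FPKM. Every KO-labelled value lay far above every WT value (log2 fold change 4.67, limma adjusted p = 4.12e-05). Added together, gene and copy gave 194, 208 and 206 FPM in WT and 194, 191 and 216 FPM in KO-labelled libraries, with groups that overlapped. The reference form of Cox7a2l lacks 6 bases that Gm6969 holds, and mouse strains are known to carry either a short or a long Cox7a2l allele, C57BL/6, the strain of the reference, having the short one. The strain of either set of cells is not given in the labels, and the origin of the fragments counted at Gm6969 was not tested.

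In the F1 head and central stalk of the ATP synthase, 4 of 5 members were lower in the KO-labelled libraries, beside 30.2% of all tested genes. Both catalytic head genes moved by a like amount. Atp5a1, the alpha subunit, had the highest level in complex V, 1804 TPM in WT and 1139 TPM in KO-labelled libraries. It was at 557, 559 and 561 FPKM against 328, 332 and 332 FPKM. The replicates lay close together and the groups far apart, 1.69-fold, with a log2 fold change of -0.76 ± 0.03 (SE, limma adjusted p = 2.09e-06). Atp5b, the beta subunit that holds the catalytic sites, was at 455, 445 and 461 FPKM against 273, 266 and 291 FPKM (-0.71 ± 0.04, SE, limma adjusted p = 1.27e-05). The alpha to beta ratio in FPKM was 1.23 ± 0.022 (SD, n = 3) in WT and 1.20 ± 0.0525 (SD, n = 3) in KO-labelled libraries, with groups that overlapped.

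The stalk members were not uniform. Atp5d, the delta subunit, was at 128, 136 and 142 FPKM against 85.7, 89.1 and 72.9 FPKM and was lower by as much as the head genes (-0.71 ± 0.08, SE, limma adjusted p = 0.000273). Atp5c1, the gamma subunit that turns inside the head, was at 178, 175 and 181 FPKM against 156, 161 and 169 FPKM. Its groups did not overlap, but the difference was small (-0.14 ± 0.04, SE, limma adjusted p = 0.0269), was lost on the TPM scale and without any one library other than KO-labelled replicate 3, and turned to 0.06 (limma adjusted p = 0.27) under quantile normalization. The ratio of Atp5a1 to Atp5c1 in FPKM went from 3.14 ± 0.0508 (SD, n = 3) to 2.04 ± 0.0691 (SD, n = 3). Atp5e, the epsilon subunit, did not pass (-0.22 ± 0.09, SE, limma adjusted p = 0.0736). It passed without WT replicate 3 (-0.29, limma adjusted p = 0.0406), under voom (-0.19, adjusted p = 0.04965) and with the replicate number as a block (limma adjusted p = 0.0119).

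Against 30.2% of all tested genes, 1 of 5 tested members was lower in the peripheral stalk, which holds the head still. This was Atp5f1, subunit b, at 119.9, 116 and 123 FPKM in WT against 74.7, 76.2 and 64.2 FPKM in the KO-labelled group (-0.73 ± 0.07, SE, limma adjusted p = 0.000107). Atp5h, Atp5j and Atp5s overlapped between groups, with log2 fold changes of -0.11, -0.00 and -0.12, and Atp5h passed without KO-labelled replicate 3 (-0.16, limma adjusted p = 0.0168). The ratio of Atp5a1 to Atp5j was 16.9 ± 0.139 (SD, n = 3) in WT and 10.0 ± 0.702 (SD, n = 3) in KO-labelled libraries. Atp5o, the subunit that ties the stalk to the head, was at 70.6, 72.8 and 75.2 FPKM against 68.2, 56.4 and 33.6 FPKM. The KO-labelled libraries were all lower but spread over a factor larger than the difference between groups, which did not pass (-0.52 ± 0.23, SE, limma adjusted p = 0.0915). The difference passed without KO-labelled replicate 1 (-0.73, limma adjusted p = 0.0232) and under voom (-0.47, adjusted p = 0.0243). Of the exon bases of Atp5o, 35.6% lie opposite other genes and 12.3% are shared with genes on the same strand. A further gene annotated as Atp5o, which overlaps Donson and the first, had no fragment in any library. Among the supernumerary subunits Atp5mpl (-0.33) and Atp5j2 (-0.14) were lower, and Atp5k and Atp5l did not pass. Both calls were lost on the TPM scale and without WT replicate 2 (limma adjusted p of 0.0518 for Atp5mpl and 0.0755 for Atp5j2). That on Atp5j2 was also lost without KO-labelled replicate 2 (limma adjusted p = 0.0728), without WT replicate 3 (limma adjusted p = 0.0549) and under voom (adjusted p = 0.0659), and Atp5l passed without KO-labelled replicate 2 (-0.23, limma adjusted p = 0.02).

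**Figure D4:**
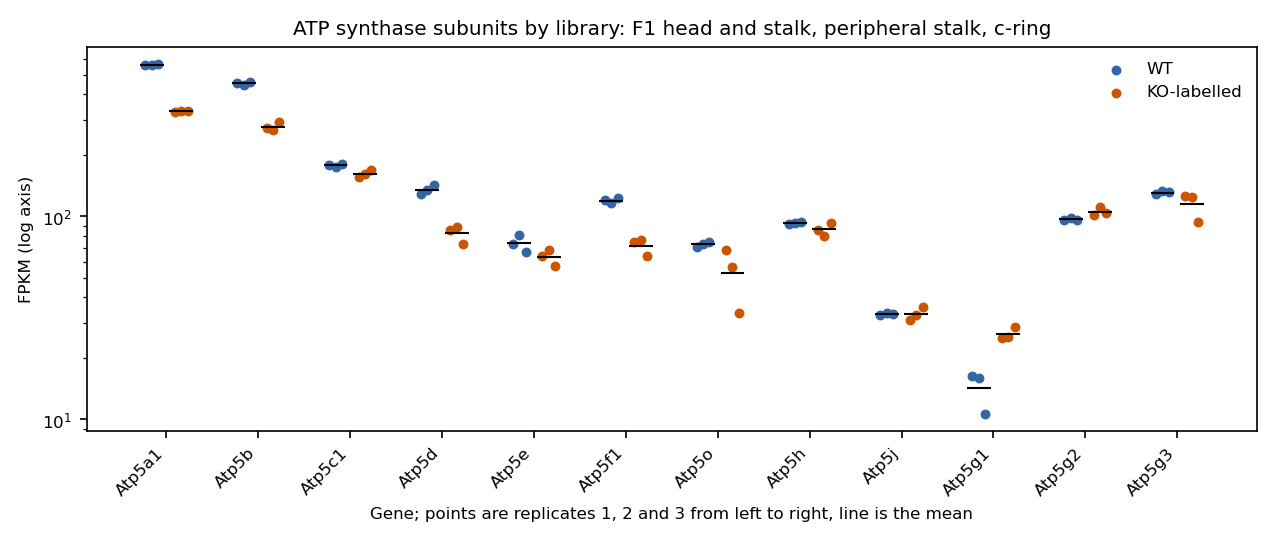
FPKM (log axis) of ATP synthase head, stalk, peripheral stalk and c subunit genes in each library, WT in blue and KO-labelled in orange, replicates 1 to 3 from left to right and the mean as a line. Atp5a1, Atp5b, Atp5d and Atp5f1 stand apart between groups, Atp5j does not, and the KO-labelled values of Atp5g1 and Atp5g2 lie above the WT values.

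Atp5g1, Atp5g2 and Atp5g3 encode the same mature c subunit with different import signals, and their members did not move together. Atp5g1, at chr11:96068852-96075670, was at 16.4, 15.96 and 10.7 FPKM in WT against 25.2, 25.6 and 28.5 FPKM in the KO-labelled group. It was higher without overlap (0.86 ± 0.15, SE, limma adjusted p = 0.00245). Atp5g2 was at 96.5, 98.2 and 96.6 FPKM against 102, 111 and 104 FPKM. It was higher by a small amount (0.12 ± 0.04, SE, limma adjusted p = 0.0446), a call lost without KO-labelled replicate 2 (limma adjusted p = 0.137) and without each of the WT libraries (limma adjusted p from 0.0885 to 0.115). With the fragments of its copies added, it did not pass either (0.11, limma adjusted p = 0.0612). Atp5g3 was at 128, 133 and 132 FPKM against 126, 125 and 94.1 FPKM. All its KO-labelled values were lower, replicate 3 by most, and the difference did not pass (-0.20 ± 0.11, SE, limma adjusted p = 0.155). Of the summed TPM of the trio, Atp5g1 took 5.91% in WT and 10.8% in KO-labelled libraries, Atp5g2 took 40.0% and 42.9%, and Atp5g3 took 54.1% and 46.3%.

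Atp5g1 and its copy moved in opposite directions. Gm10039, an intronless copy at chr11:100361716-100362126 whose coding sequence differs from that of Atp5g1 by G385A alone, was at 228, 251 and 278 FPKM in WT against 122, 127 and 108 FPKM in the KO-labelled group. It was lower without overlap (log2 fold change -1.08, limma adjusted p = 5.2e-05). In FPM, Atp5g1 went from 70.5 to 129.7 and Gm10039 from 104 to 48.9, while their sum was 174, 181 and 167 in WT and 174, 178 and 184 in KO-labelled libraries. The summed groups overlapped, and the log2 fold change was 0.03 at a limma adjusted p of 0.565. Which locus the fragments came from was not tested. Gm12338, a copy of Cox7c identical to it over 192 bases, was also lower, at 85.3, 78.3 and 91.7 FPKM against 32.8, 39.1 and 31.0 FPKM. Cox7c itself hardly differed, at 126 and 129 FPM on average (log2 fold change 0.02, limma adjusted p = 0.904). With its copies Cox7c gave 142 and 136 FPM on average.

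**Figure D5:**
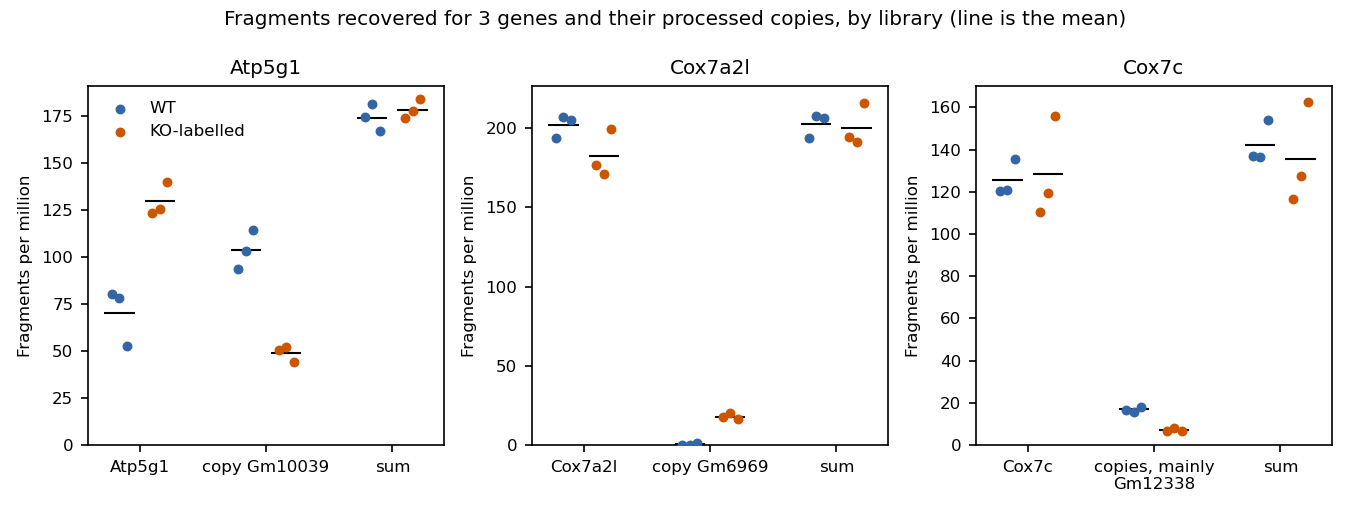
Fragments per M fragments of the library (FPM), recovered for Atp5g1, Cox7a2l and Cox7c, for their processed copies and for the sum, in each WT (blue) and KO-labelled (orange) library, with means as lines. The sums overlap between groups for all 3 genes, while the copies alone stand apart.

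In all, 21 of the 61 members had at least 1 annotated copy of 95% identity or more over 80% of the shorter transcript. Leaving them out gave 7 of 8 lower in complex III, 9 of 15 in complex IV and 5 of 9 in complex V. Among all tested genes, from which genes with copies were not left out, 30.2% were lower. The summed TPM of the nuclear members was 3274 ± 47.8 (SD, n = 3) in WT and 2760 ± 147 (SD, n = 3) in KO-labelled libraries for complex III. For complex IV it was 6765 ± 167 and 6519.9 ± 168, and for complex V 6837 ± 49.8 and 5305 ± 89.8, each SD over 3 libraries. The groups were apart in complexes III and V and overlapped in complex IV, where one KO-labelled library exceeded the lowest WT library.

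Genes that work with these complexes, taken from lists of other assembly factors and partners, moved in both directions. Of 5 tested complex III assembly factors 2 were lower, Ttc19 (-0.57) and Uqcc2 (-0.29), which serve the turnover of Rieske protein fragments and the making of cytochrome b. Of 18 further complex IV subunits and factors 4 were lower and 4 higher. Ndufa4, a subunit of complex IV outside the name rule, was at 102, 108 and 113 FPKM in WT against 54.8, 62.9 and 57.6 FPKM in the KO-labelled group (-0.87, limma adjusted p = 2.93e-05). Coa6, which brings copper to the mt-Co2 protein, was higher, at 11.0 ± 0.0288 against 19.5 ± 3.44 FPKM (SD, n = 3; limma adjusted p = 0.000969).

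Of 6 complex V factors 2 were lower and 1 higher. Fmc1, a factor for F1 assembly known from yeast, was at 21.8, 27.1 and 22.4 FPKM against 9.24, 10.4 and 8.72 FPKM (-1.24, limma adjusted p = 4.12e-05). Tmem70, which helps build the c ring, was at 28.5, 29.9 and 26.3 FPKM against 46.4, 51.2 and 59.6 FPKM (0.86, limma adjusted p = 0.000221). Atpif1, the inhibitor of the ATP synthase, was lower by a little (-0.15, limma adjusted p = 0.0188).

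Of 7 mitochondrially encoded complex I genes 3 were lower. mt-Nd1 was lower (-0.53) and mt-Nd3, at -0.51, did not pass. Of 8 complex II genes 4 were lower, with Sdhc (-0.64) and Sdhb (-0.31) moving most. Of 15 tested nuclear regulators of respiratory genes 2 were higher and 3 lower. Ppargc1b, a coactivator of mitochondrial genes, was lower, from 5.19 to 2.57 FPKM (-0.80), and Polrmt, the mitochondrial RNA polymerase, was higher (0.30). Of 20 genes that serve as a gauge of mitochondrial content, 12 were lower and 6 higher. The import receptors Tomm20 (1.07) and Tomm22 (0.70) were higher, so this list did not move one way. These lists are described by their counts, beside 30.6% higher and 30.2% lower among all tested genes.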

How the data were processed

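The authors deposited FPKM per Ensembl gene in 1 file per library, per the file headers and names. The submitters' processing notes name the tools HISAT2 (2.0.5) and featureCounts (1.5.0-p3) with build mm10. Not given in the sources used here are the annotation, the strand setting and the handling of reads that fit several places; the labels' protocol allows libraries with or without strand. Symbols came from GENCODE M21 and matched 54495 of 54532 genes. Fragments were recovered from FPKM and exon length; 97.9% to 98.0% of values up to 200 fragments came out whole within 0.1. Copies were sought with BLAST+ 2.17.0+ among GENCODE M21 transcripts only (at least 95% identity, 80% of the shorter transcript and 150 bases). Copies without an annotated transcript were not searched for.

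WT and KO-labelled libraries, 3 each, were compared by limma-trend (limma 3.58.1, R 4.3.3) for log2(FPKM + 1). Genes were tested where FPKM averaged 1 or more, p-values were adjusted by Benjamini-Hochberg, and the threshold was 0.05. Fold changes on this scale understate changes of low genes. On data simulated for this comparison over 10528 genes, 94.0% of 1.5-fold and 100.0% of 2-fold changes were recovered, and 5.77% of the calls were false. In the simulation few genes were changed, none of them among the lowest, and all genes had a common spread beyond counting error. In the data 60.8% of tested genes passed. The simulated shares hold for the simulated data only and were not measured on the libraries. Members with a wide spread, such as Atp5o (52.7 ± 17.6 FPKM in KO-labelled libraries, SD, n = 3), may fare worse. No 2 libraries shared a list of identical values. The alternatives were other scalings, filters, a pseudocount of 0.1, quantile normalization, voom on recovered fragments, a replicate block, leaving out each library, and leaving out or summing copies. Summing copies was added after the data were seen. The members and lists were chosen with earlier results of these data known. Members given in every library are the 3 largest fold changes in complex III, complex V, and the nuclear subunits and assembly factors of complex IV, all mitochondrially encoded members, Cyc1, Cycs, isoform sets averaging 1 FPKM or more in a group, the highest member per complex, and members called against the direction of their complex; of other lists, the 2 largest fold changes. Others named were chosen after their values were seen.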

Additional observations from a re-analysis of the deposited data

How the results depend on the processing

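Low members such as Cox6a2 and Cox7a1 rest on few fragments. Of the 52 tested members, 44 kept their side of the threshold on the TPM scale, 43 under quantile normalization, 45 under voom on recovered fragments and 52 with a pseudocount of 0.1. Directions moved more, as members that did not pass changed sign. Positive fold changes were 8 of 52 on the FPKM scale, 13 on the TPM scale, 14 under quantile normalization and 10 under voom. Of the members called on the FPKM scale, Atp5c1 turned to 0.0634 and Cox7a2 to 0.0649 under quantile normalization, neither passing. The cause was not tested. Higher calls in complex III were 1 on the TPM scale with or without mitochondrial genes, with the filter at 5 FPKM, under quantile normalization and under voom, and 0 to 1 leaving out 1 library. Higher calls in complex IV were 2 on both TPM scales and under quantile normalization, 1 under voom, and 0 to 1 leaving out 1 library. Higher calls in complex V were 0 with copies summed or members with copies left out, 1 without the filter, and 1 to 2 leaving out 1 library. Lower calls in complex V were 5 on both TPM scales, under quantile normalization and with members with copies left out, where fewer genes were tested, and 5 to 9 leaving out 1 library, the 5 without WT replicate 2. Medians in complex III were -0.35 on both TPM scales and -0.32 under quantile normalization. Medians in complex IV were -0.10 without mitochondrial genes in the TPM, -0.0944 on the TPM scale, -0.0905 under quantile normalization, -0.15 with copies summed, -0.10 at 5 FPKM, -0.36 with copies left out and -0.22 to -0.15 leaving out 1 library. Medians in complex V were -0.12 on both TPM scales and -0.27 to -0.17 leaving out 1 library. TPM moved the median of all tested genes to 0.10. The share of all tested genes that passed also moved with the setting. It was 60.9% under quantile normalization, 63.4% under voom, 64.6% at 5 FPKM, 35.6% without the filter and 53.8% to 59.4% leaving out 1 library. Higher and lower calls over all genes were 3239 and 3369 under quantile normalization, 3647 and 3221 under voom, and 3902 and 3512 without the filter. Deviations of same-numbered libraries had correlations of -0.03, 0.05 and -0.03. Whether same-numbered libraries were handled together is not stated in the labels, and correlations over 3 libraries per group cannot decide it. With the replicate number as a block, higher and lower calls were 3119 and 3075 over all genes. They were 1 and 8 in complex III, 0 and 11 in complex IV and 1 and 7 in complex V. Under the block Uqcr10, Atp5e and Cox7a1 passed, and Atp5c1, Atp5g2, Atp5j2, Cox7a2 and mt-Co1 no longer did.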
